A study of Homo sapiens with 30 samples.

Results

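The genes described here are 9 genes of the MHC class I antigen presentation pathway, HLA-B, HLA-C, HLA-E, HLA-F, B2M, TAP1, TAP2, PSMB8 and PSMB9. They were chosen by name, as those lines of the deposited count table whose gene symbol is on this list, and they are 9 of the 63138 genes kept from that table. All 9 were found, each on 1 line, and all 9 passed the filter on low counts in every fit. RNA was sequenced from hCMEC/D3 cells, which derive from endothelium of human brain microvessels, were immortalised and are used in culture to study the blood-brain barrier. There were 30 libraries in 10 groups of 3. The direct groups were cells kept for 12 h in serum-free medium (Control) or exposed to tumour necrosis factor alpha (TNF, 25 ng/mL), interleukin 1 beta (IL1b, 10 ng/mL), the complement fragment C5a (50 ng/mL) or epinephrine (Epinephrine, 200 nM). The vesicle groups were cells of the same line given extracellular vesicles (EV) that had been enriched from the supernatant of cells treated in those 5 ways, named after the treatment with EV before it, from EV-Control to EV-Epinephrine. Titles of the vesicle libraries also carry 12 h; the amount of vesicles is not given in the sources used here.

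MHC class I molecules show short peptides from the inside of a cell to CD8+ T cells and natural killer cells. Peptides are cut by the proteasome, whose catalytic subunits can be exchanged for the inducible subunits encoded by PSMB8 and PSMB9. TAP1 and TAP2 form the transporter that moves peptides into the endoplasmic reticulum. There they are loaded onto a heavy chain bound to the light chain beta-2 microglobulin, encoded by B2M. HLA-B and HLA-C are classical heavy chains, which vary widely between people, whereas HLA-E and HLA-F are non-classical heavy chains of low variability. Inflammatory cytokines and interferons are known to raise expression of the pathway in endothelium. Of the 9 genes, 8 lie in the MHC region of chromosome 6, and B2M is on chromosome 15.

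The reference promoters of the members differ in 2 short motifs that are often discussed for this pathway, and stretches that hold them are printed for that reason. RefSeq promoter windows on GRCh38.p14, each running from 250 bases before to 50 after an annotated start, were matched by symbol for 8 of the 9 genes, and HLA-E was not matched. The 8 genes had 10 windows, since TAP1 and PSMB8 have 2 each. Both strands were searched for the core of the interferon-stimulated response element and for a loose form of the NF-kappa B site. Matches of either motif are in capitals, each stretch is written in the direction of its gene, and overlapping matches run together. TAP1 has further matches of the NF-kappa B form, in both of its windows, that lie outside the stretch printed.
HLA-B: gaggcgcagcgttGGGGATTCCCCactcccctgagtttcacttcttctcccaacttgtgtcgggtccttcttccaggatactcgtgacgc
HLA-C: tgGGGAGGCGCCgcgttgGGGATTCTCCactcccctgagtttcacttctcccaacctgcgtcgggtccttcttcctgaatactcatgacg
HLA-F: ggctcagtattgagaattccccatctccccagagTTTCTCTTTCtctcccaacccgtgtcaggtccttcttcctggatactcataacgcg
B2M: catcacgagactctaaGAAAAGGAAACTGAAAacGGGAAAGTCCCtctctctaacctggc
TAP1: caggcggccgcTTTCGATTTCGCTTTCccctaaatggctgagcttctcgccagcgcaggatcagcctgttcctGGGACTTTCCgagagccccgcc
TAP2: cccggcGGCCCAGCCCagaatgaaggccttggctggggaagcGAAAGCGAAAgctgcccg
PSMB8: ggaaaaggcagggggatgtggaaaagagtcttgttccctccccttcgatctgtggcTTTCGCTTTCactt

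These stretches lie at chr6:31357280-31357369 (HLA-B, minus strand), chr6:31272193-31272282 (HLA-C, minus), chr6:29723244-29723333 (HLA-F, plus), chr15:44711357-44711416 (B2M, plus), chr6:32853755-32853849 (TAP1, minus), chr6:32838780-32838839 (TAP2, minus) and chr6:32844038-32844107 (PSMB8, second window, minus). The response element core was present in at least 1 window of 5 of the 8 genes, HLA-F, B2M, TAP1, TAP2 and PSMB8, and it occurs in 3.57% of all 35116 RefSeq promoter windows. HLA-B, HLA-C and PSMB9 had no exact match in their window. Near matches and sites outside the windows were not looked for. The loose NF-kappa B form was present in 5 of the 8, HLA-B, HLA-C, B2M, TAP1 and TAP2, and it occurs in 58.7% of all windows. That count is near this share. The counts are per gene and the shares per window, and TAP1 and PSMB8 have 2 windows each. Within its window HLA-F had the first motif but not the second, and PSMB9 had neither. TAP1 and PSMB9 are neighbours read in opposite directions, with annotated starts 488 bases apart, and their windows share 13 bases. The matches printed for TAP1 lie between these starts and outside the PSMB9 window. A match is a description of the reference letters, and whether any factor bound there was not tested.

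Library totals ran from 16643961 to 22112326 counts, with 14340 to 15196 genes at 10 counts or more. Levels are given in CPM, counts brought to a common library size with edgeR's trimmed mean of M-values (TMM) factors, and ± is the SD of n = 3 libraries. Every member had at least 477 counts in every library. Counting alone gives a coefficient of variation of 0.383% to 4.19% at these counts, and the spread of the 3 libraries was above it in 80 of the 90 pairs of a member and a group. The labels do not say whether the 3 libraries of a group came from separate cultures, so p-values measure the spread between these libraries, which may be technical. All 10 endothelial marker genes looked for, among them PECAM1, CDH5 and VWF, averaged at least 1 CPM. The summed level of 6 leukocyte markers was 1.98 to 4.25 CPM. Of the astrocyte markers, AQP4 had 0 counts in all libraries and GFAP averaged 3.61 CPM. Markers of pericytes or smooth muscle were not low. They summed to 319 to 508 CPM, among them CSPG4 (mean 338 CPM) and PDGFRB (67.8 CPM), beside 682 to 1163 CPM for the endothelial markers. Of the epithelial markers, KRT8 averaged 18.5 CPM. In bulk RNA, a change in the number of cells expressing a gene and a change in RNA per cell cannot be told apart.

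In Control cells HLA-B, HLA-C, B2M and HLA-E were the most abundant members, and the heavy chain HLA-F was the least abundant. Per kilobase of annotated exon, HLA-B stood at 615 CPM, HLA-C at 484, B2M at 339 and HLA-E at 176. The processing genes were lower on this per-kilobase scale, with PSMB8 at 36.9, TAP1 at 36.1, PSMB9 at 22.9 and TAP2 at 11.5 CPM, and HLA-F stood at 10.9. Exon lengths were taken from GENCODE 29 as all annotated exons of a gene joined, 6079 bases for B2M and 3051 for HLA-B. The place of B2M below HLA-B rests on these lengths, which can exceed that of the main transcript. Without them B2M was the higher in Control, at 2064 CPM against 1877 for HLA-B. In GENCODE 29 the models of HLA-B and HLA-C overlap on the same strand, and those of PSMB8, PSMB9 and TAP1 overlap neighbours on the opposite strand. Whether counting used the strand is not given in the sources used here, and class I genes are near-identical in places and vary between people, so the split of reads among them is uncertain.

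**Figure D1:**
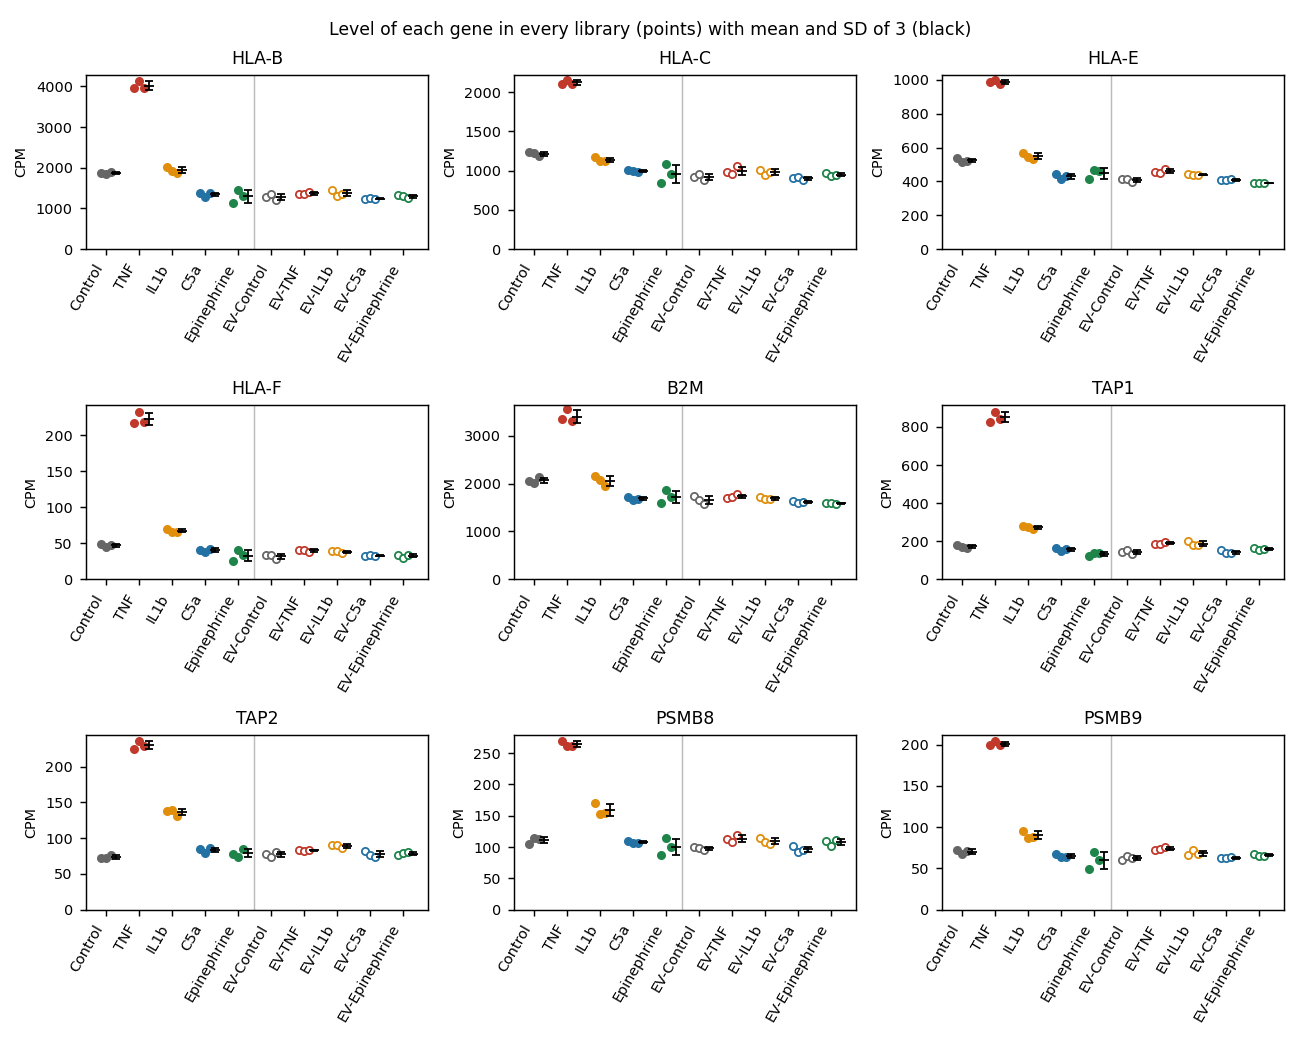
CPM of each of the 9 genes in all 30 libraries (points; filled for direct groups, open for vesicle groups), with the mean and SD of 3 libraries in black; each panel has its own linear axis from 0. The TNF libraries are the highest for every gene, from 217 to 232 CPM for HLA-F and from 3949 to 4139 CPM for HLA-B, and IL1b libraries are the next highest for TAP1, TAP2, PSMB8, PSMB9 and HLA-F.

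TNF raised all 9 genes, most of all TAP1 (4.91-fold) and HLA-F (4.71-fold) and least B2M (1.64-fold). All 9 passed the test, and 27.5% of the 15908 genes tested were higher in TNF cells at the same threshold (52.7% in either direction). The median log2 fold change was 1.26 over the 9 genes and -0.012 over all genes tested. For each of the 9 genes the 3 TNF libraries lay above the 3 Control libraries, which was so for 30.7% of all genes tested. Scaling by total counts in place of the TMM factors moved the median over all genes to -0.288, and took the share of called genes that were higher from 52.1% to 22.7%, and all 9 genes were still called higher.

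Among the heavy chains, HLA-B stood at 1880.3, 1856 and 1896 CPM in the Control libraries and at 3949, 4139 and 3955 CPM in the TNF libraries. HLA-C stood at 1235, 1222 and 1183 CPM in Control and at 2109.9, 2159 and 2102 CPM in TNF cells. Both classical heavy chains were thus higher in every TNF library, by 2.14-fold for HLA-B (log2 fold change 1.10, SE 0.057, edgeR adjusted p 1.88e-14) and by 1.75-fold for HLA-C (0.81, SE 0.052, edgeR adjusted p 2.99e-14). HLA-E, a ligand of NKG2A receptors on natural killer cells, stood at 536, 514 and 522 CPM in Control and at 987, 1000.2 and 976 CPM in TNF cells. HLA-F stood at 49.2, 44.8 and 47.5 CPM in Control and at 217, 232 and 219 CPM in TNF cells. The non-classical pair differed from each other in size of change, with log2 fold changes of 0.91 (SE 0.045) for HLA-E and 2.24 (SE 0.10) for HLA-F. B2M, the light chain shared by all of them, stood at 2047, 2019 and 2126 CPM in Control and at 3339, 3545 and 3299.8 CPM in TNF cells (log2 fold change 0.72, SE 0.046, edgeR adjusted p 8.51e-16).

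TAP1 stood at 183, 171 and 166 CPM in the Control libraries and at 828, 879 and 844 CPM in the TNF libraries, with a log2 fold change of 2.29 (SE 0.052, edgeR adjusted p 2.46e-29). TAP2, which pairs with TAP1 in the transporter, stood at 71.9, 71.8 and 76 CPM in Control and at 225, 236 and 229 CPM in TNF cells, with a log2 fold change of 1.65 (SE 0.052, edgeR adjusted p 8.01e-25). Neither gene's groups came near each other. PSMB8, an inducible catalytic subunit of the proteasome, stood at 105, 114 and 113 CPM in Control and at 270, 262 and 261 CPM in TNF cells. PSMB9, the other inducible subunit studied here, stood at 72.3, 67 and 71.4 CPM in Control and at 199, 204 and 199 CPM in TNF cells. The log2 fold changes were 1.26 (SE 0.062) for PSMB8 and 1.51 (SE 0.072) for PSMB9.

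IL1b raised 5 of the 9 genes, and these were HLA-F and the 4 genes of peptide transport and cutting. HLA-B, HLA-C, HLA-E and B2M did not pass the test. In this comparison 24% of all genes tested were higher (46.6% in either direction), and the median log2 fold change was 0.37 over the 9 genes and -0.011 over all genes.

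TAP2 changed most in IL1b cells, at 138, 139 and 131 CPM, with a log2 fold change of 0.90 against Control (SE 0.053, edgeR adjusted p 2.01e-16). TAP1 stood at 282, 275 and 264 CPM in the IL1b libraries, with a log2 fold change of 0.67 (SE 0.051, edgeR adjusted p 2.34e-13). All IL1b libraries were above all Control libraries for both transporter genes, as they were for 28% of all genes tested. PSMB8 stood at 171, 153 and 154 CPM and PSMB9 at 95.8, 87 and 88.5 CPM in IL1b cells, and their log2 fold changes were 0.53 (SE 0.062) and 0.37 (SE 0.073). HLA-F stood at 70, 66.3 and 66 CPM, with a log2 fold change of 0.52 (SE 0.11, edgeR adjusted p 0.000844). For the abundant heavy chains and B2M the log2 fold changes were 0.06 for HLA-B (SE 0.056), -0.08 for HLA-C (SE 0.052), 0.08 for HLA-E (SE 0.044) and 0.005 for B2M (SE 0.046). With scaling by total counts HLA-C was lower in IL1b cells and passed the test (log2 fold change -0.17, edgeR adjusted p 0.00729), and the share of all called genes that were higher went from 51.5% to 38.6%.

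Set against TNF directly, all 9 genes were lower in IL1b cells and passed the test, where 21.4% of all genes tested were lower. The log2 fold change of IL1b against TNF ran from -0.71 for B2M to -1.71 for HLA-F, and it was -0.75 for TAP2 and -1.63 for TAP1. With total counts all 9 were again lower, while the median of all genes was 0.205 and 76.1% of called genes were higher, against 48.1% with TMM factors. TAP2 was the transporter gene with the smaller rise under TNF and the larger rise under IL1b. The cytokines were given at different doses, 25 and 10 ng/mL, so the sizes compare these treatments and not the cytokines at a matched dose.

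**Figure D2:**
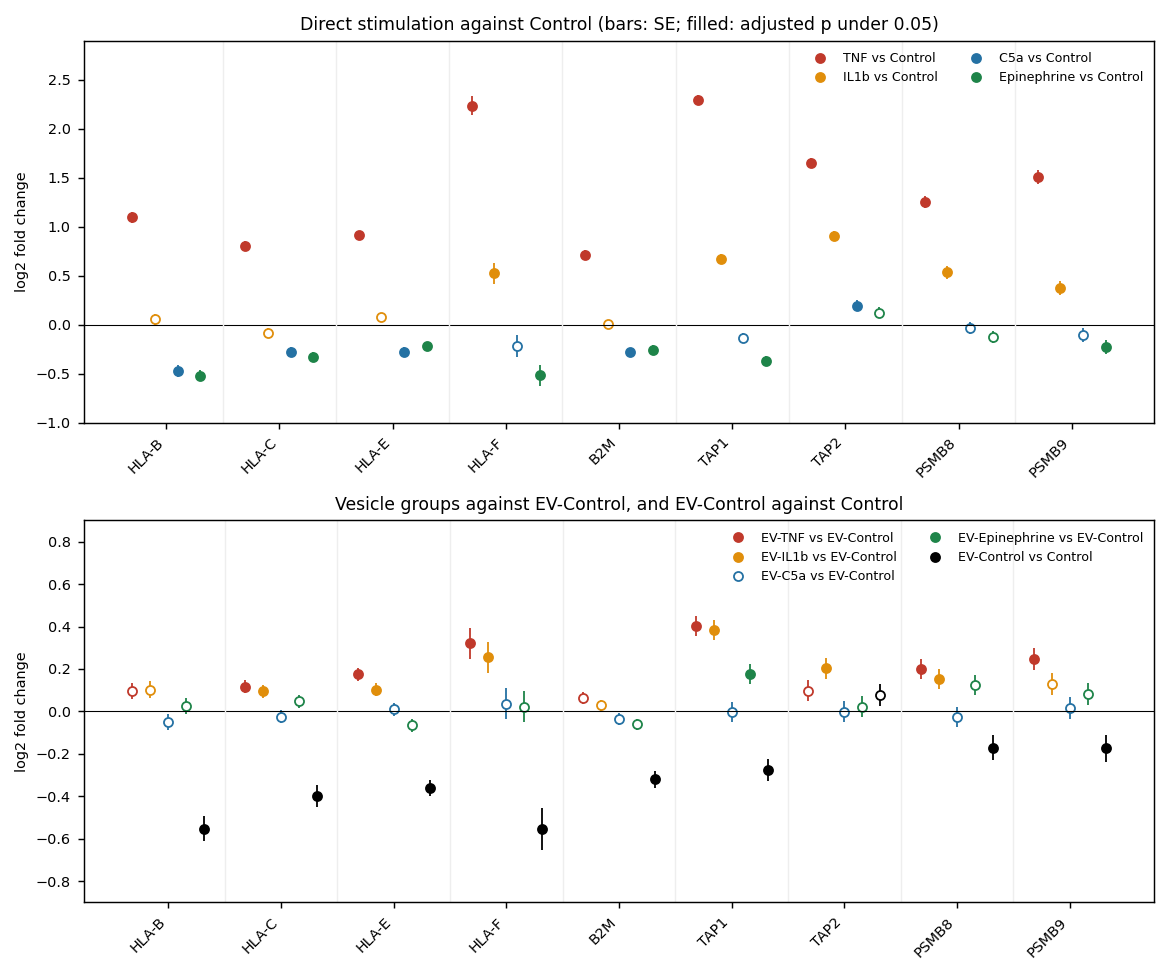
Log2 fold change with its SE (bars) for each gene, above for the 4 direct stimuli against Control and below for the 4 vesicle groups against EV-Control and for EV-Control against Control; filled points passed the test and the panels have different scales. TNF values run from 0.72 to 2.29, the vesicle comparisons stay between -0.07 and 0.40, and EV-Control against Control lies below 0 for 8 of the 9 genes.

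Ratios of 2 genes' counts inside 1 library do not depend on how libraries are scaled. The ratio of PSMB8 to PSMB5, the constitutive subunit that its product replaces, was 0.898 ± 0.012 in Control, 1.81 ± 0.0389 in TNF and 1.15 ± 0.11 in IL1b cells (n = 3 each). The ratio of PSMB9 to its constitutive counterpart PSMB6 was 0.584 ± 0.0189 in Control, 1.67 ± 0.00663 in TNF and 0.929 ± 0.0703 in IL1b cells. For the third such pair, PSMB10 and PSMB7, the ratio was 0.104 ± 0.0125 in Control, 0.265 ± 0.0225 in TNF and 0.144 ± 0.0153 in IL1b cells. In all 3 pairs the ranges of the 3 groups were apart, with TNF highest. TAP1 gained on the light chain, with a ratio to B2M of 0.084 ± 0.00552 in Control, 0.251 ± 0.00436 in TNF and 0.133 ± 0.00275 in IL1b cells. The ratio of TAP1 to TAP2 was 2.37 ± 0.176 in Control, 3.7 ± 0.0283 in TNF and 2.01 ± 0.0323 in IL1b cells, so it moved in opposite directions under the 2 cytokines. The fall was not particular to IL1b, since the ratio was 1.89 ± 0.0638 in C5a and 1.69 ± 0.178 in Epinephrine cells. HLA-B gained on HLA-C in TNF cells, from a ratio of 1.55 ± 0.0475 to 1.89 ± 0.0241.

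**Figure D3:**
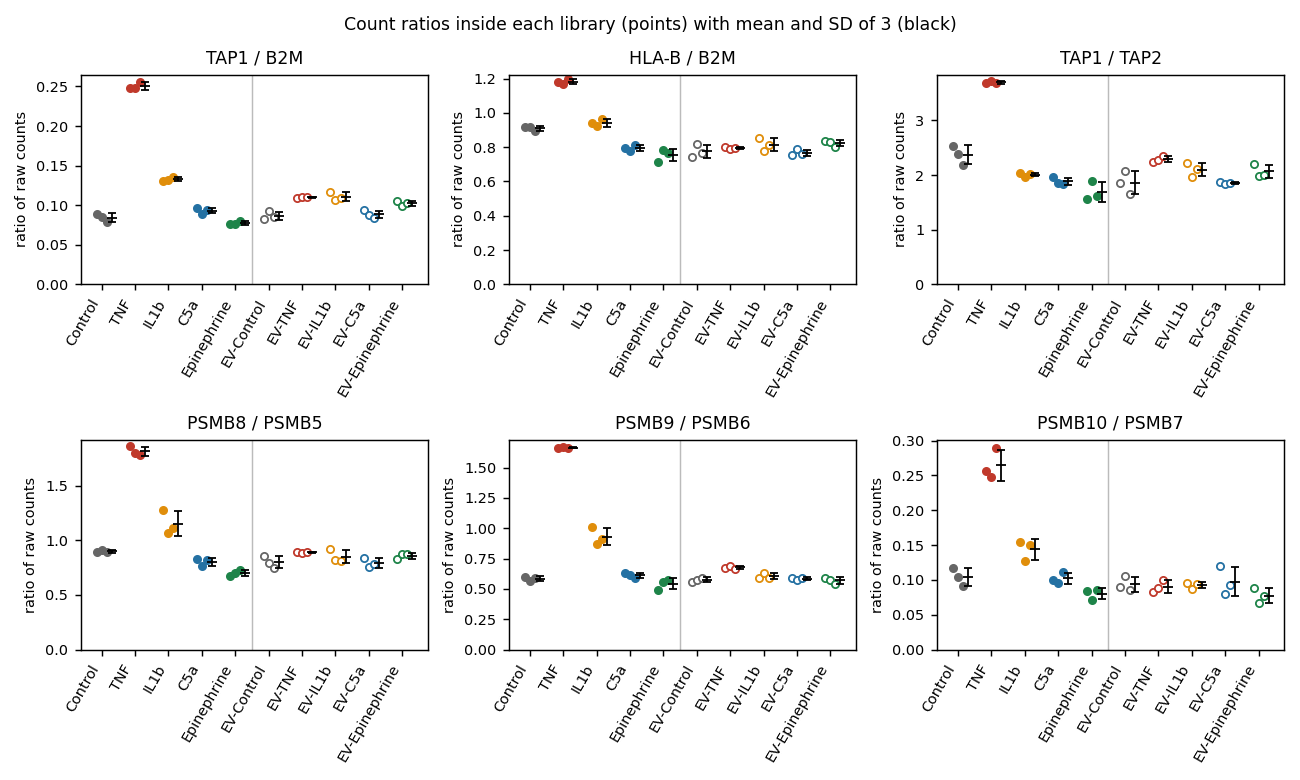
Ratio of raw counts of 2 genes within each library (points), with the mean and SD of 3 libraries in black and linear axes from 0. For the inducible over constitutive proteasome pairs in the lower row, TNF libraries are highest (1.78 to 1.86 for PSMB8 over PSMB5) and IL1b libraries second (1.07 to 1.28).

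Around the members, the pathway moved broadly under TNF. The third inducible proteasome subunit gene PSMB10 and the genes PSME1 and PSME2 of the PA28 proteasome activator were all higher (3 of 3), with log2 fold changes of 1.82 (SE 0.089), 1.02 (SE 0.054) and 1.32 (SE 0.054). Of the constitutive subunit genes, PSMB7 (0.47, SE 0.053) and PSMB5 (0.24, SE 0.058) were higher, and PSMB6 did not pass the test (0.00, SE 0.056). All 8 of 8 genes of peptide loading and trimming were higher, from PDIA3 (0.35) to TAPBP (1.83, SE 0.064), which encodes tapasin, the bridge between the transporter and the heavy chain. The trimming enzyme gene ERAP1 had a log2 fold change of 1.03 (SE 0.056) and ERAP2 of 0.94 (SE 0.047). The median log2 fold change of the loading and trimming list was 0.90, beside -0.012 over all genes.

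Of 9 genes for transcription factors and co-activators of class I genes, 8 were higher in TNF cells and RFXAP was lower (-0.77, SE 0.13). IRF1, an interferon-induced activator of class I promoters, stood at 41.2, 39.2 and 47.1 CPM in Control and at 357, 401 and 391 CPM in TNF cells (log2 fold change 3.17, SE 0.15). NLRC5, the co-activator that is dedicated to class I genes, rose from 124 ± 3.58 to 275 ± 11.7 CPM (1.15, SE 0.052). Transcripts of IFNB1, the type I interferon beta, were scarce, at 0 to 4 counts in Control and 14 to 31 counts in TNF libraries (log2 fold change 3.40, SE 0.68). IFNG, the gene of interferon gamma, had 0 counts in every one of the 30 libraries, which allows up to 3 counts in each (counting error only). Receptor genes IFNAR1, IFNAR2, IFNGR1 and IFNGR2 were each higher in TNF cells, with log2 fold changes of 0.48 to 1.39.

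The class II pathway was measured at low levels. Only 5 of its 8 genes were tested in the direct fit, 1 was higher and 1 lower in TNF cells. The higher one was CD74, the invariant chain, at 1.37, 1.39 and 1.24 CPM in Control and 37.2, 35.4 and 31.6 CPM in TNF cells (log2 fold change 4.69, SE 0.19). The lower one was HLA-DMA (-0.96, SE 0.21). CIITA, the class II co-activator, had a log2 fold change of 0.99 (SE 0.44) and did not pass the test. HLA-DRA had at most 4 counts in any library. Of the 7 tested genes of other class I and class I-like molecules, 4 were higher in TNF cells, among them MR1 (0.77), MICB (0.51) and HLA-G (1.08, at 3.42 ± 0.405 CPM), and 3 were lower, namely MICA (-0.13), HFE (-0.73) and FCGRT (-0.75).

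Set against TNF directly, 7 of the 8 loading and trimming genes, 7 of the 9 regulators and 4 of the 7 class I-like genes tested were lower in IL1b cells, and 1 regulator, RFXAP, was higher. Against Control, all 3 of PSMB10, PSME1 and PSME2 were higher (0.68, 0.37 and 0.60), as were PSMB5 (0.18) and PSMB7 (0.20), and PSMB6 was lower in IL1b cells (-0.29, SE 0.056). Of the loading and trimming genes 6 of 8 were higher, among them CANX (0.51, SE 0.039), which codes for the chaperone calnexin, TAPBP (0.42, SE 0.063) and ERAP1 (0.35, SE 0.056). Of the 9 regulators 5 were higher, among them IRF1, STAT2, IRF2 and NLRC5, with log2 fold changes of 0.82 for IRF1 (SE 0.15), 0.79 for STAT2 (SE 0.054), 0.63 for IRF2 (SE 0.065) and 0.15 for NLRC5 (SE 0.052). CD74 stood at 1.41 ± 0.49 CPM in IL1b cells and did not pass the test. HLA-DMA (-0.88) and HLA-DPA1 (-0.32) of the class II list were lower. Of the class I-like genes, 1 was higher, MICB (0.14), and 4 were lower, among them FCGRT (-0.84), HFE (-0.67) and MR1 (-0.21), with a median log2 fold change of -0.16 over the 7 tested, where the same median was 0.51 under TNF.

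**Figure D4:**
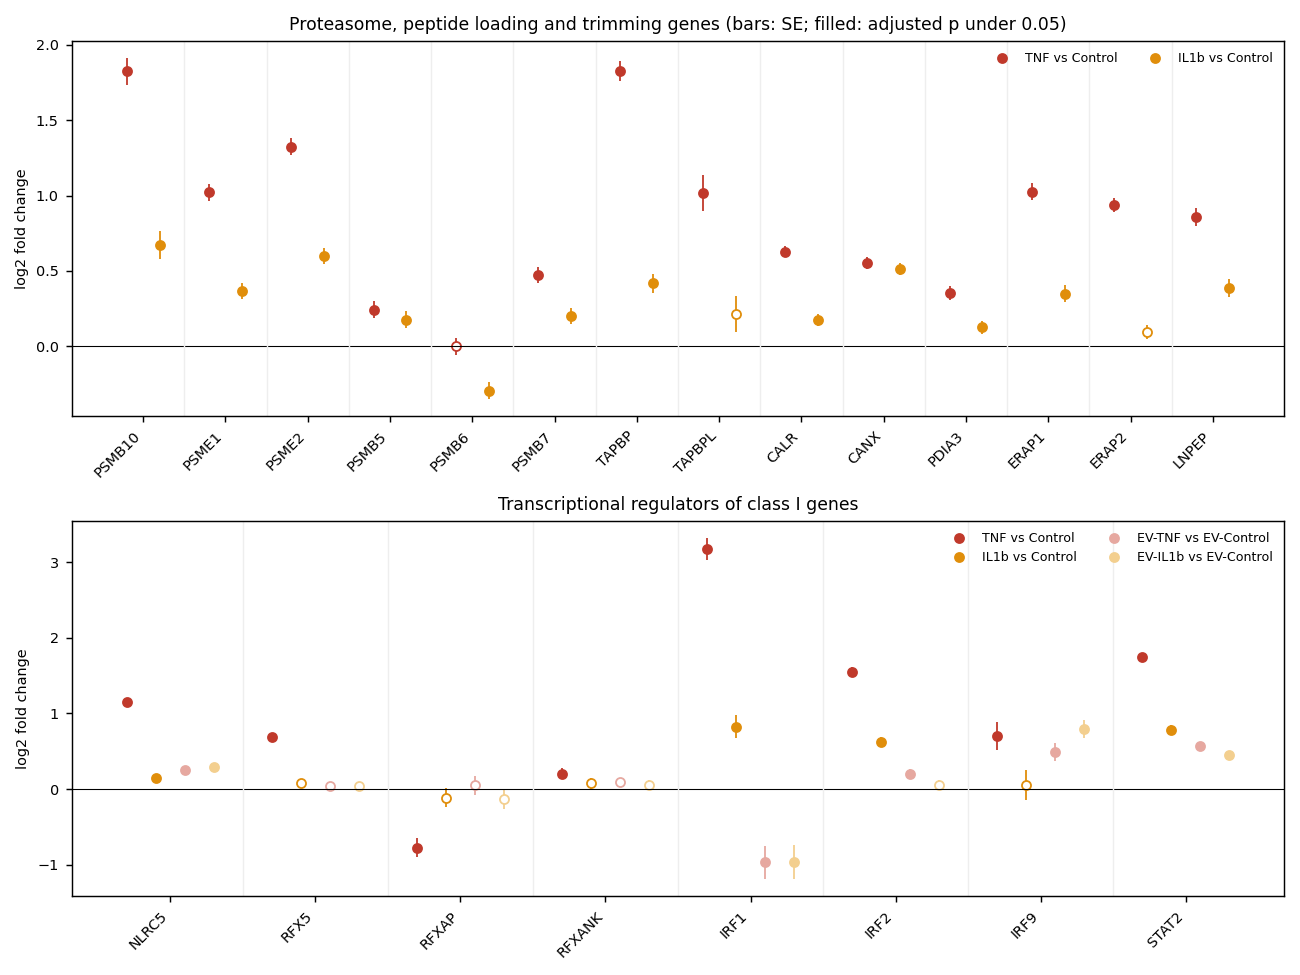
Log2 fold change with its SE (bars) of genes around the members, above for proteasome, loading and trimming genes under direct TNF and IL1b, below for regulators under both cytokines and under vesicles from cells given them; filled points passed the test. TNF values lie above IL1b values for all genes shown but RFXAP, and IRF1 is at 3.17 under TNF and at -0.97 in EV-TNF against EV-Control.

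C5a and epinephrine went with lower levels of the abundant heavy chains. In C5a cells 4 of the 9 genes were lower, HLA-B, HLA-C, HLA-E and B2M, and TAP2 was higher, beside 10.8% of all genes lower and 11.8% higher (22.6% in either direction). HLA-B stood at 1368, 1293 and 1373 CPM in C5a cells, all below the Control libraries (20.5% of all genes tested), with a log2 fold change of -0.47 (SE 0.057, edgeR adjusted p 9.47e-07). The log2 fold changes were -0.28 for HLA-C (SE 0.052), -0.27 for HLA-E (SE 0.045) and -0.28 for B2M (SE 0.046). TAP2 stood at 84.2, 79.7 and 85.9 CPM, above all Control libraries (19.9% of all genes tested), with a log2 fold change of 0.20 (SE 0.054, edgeR adjusted p 0.00647). TAP1 (-0.13, SE 0.051, edgeR adjusted p 0.0591), HLA-F (-0.22, SE 0.11), PSMB8 (-0.04, SE 0.063) and PSMB9 (-0.11, SE 0.075) did not pass the test. TAP1 passed it as lower in 6 of the 14 other settings tried at this threshold, and HLA-F in 2. Of the regulators 1 of 9 was called, NLRC5, which was lower (-0.20, SE 0.053), and IRF1 (-0.03, SE 0.16) did not pass the test. Of the loading and trimming genes 3 of 8 were lower, TAPBP (-0.20, SE 0.064), PDIA3 (-0.14) and ERAP2 (-0.14), and CANX was higher (0.12). Of the 7 class I-like genes tested 4 were lower, among them FCGRT (-0.42) and HFE (-0.31).

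Epinephrine cells had lower levels of 7 of the 9 genes, beside 11.8% of all genes lower and 25.2% in either direction. HLA-B stood at 1136, 1460.5 and 1307 CPM, with a log2 fold change of -0.52 (SE 0.057, edgeR adjusted p 1.84e-07), and HLA-F at 25, 40.1 and 33.4 CPM, with one of -0.52 (SE 0.11, edgeR adjusted p 0.00334). The 3 libraries of this group were far apart for these genes, with coefficients of variation of 12.5% for HLA-B and 23.1% for HLA-F against 1.07% and 4.76% in Control. The lowest library was the same one, replicate 1, for 8 of the 9 genes, and for TAP2 it was replicate 2. TAP1 stood at 122, 140.4 and 137 CPM, with a log2 fold change of -0.37 (SE 0.051, edgeR adjusted p 8.56e-07). HLA-C (-0.33), B2M (-0.25) and HLA-E (-0.22) were lower too. PSMB9 (-0.23, SE 0.075, edgeR adjusted p 0.0267) overlapped Control, and it lost its call in 4 of the 6 fits that left out 1 library of these groups. Without replicate 1 of Epinephrine its value was -0.11 (edgeR adjusted p 0.216), and the call was also lost without replicate 1 of Control (edgeR adjusted p 0.113), replicate 3 of Control (0.0883) or replicate 3 of Epinephrine (0.0725), and in a fit of only these groups (0.0898). TAP2 (0.12, SE 0.054) and PSMB8 (-0.13, SE 0.063) did not pass the test. Replicate 2 of Epinephrine stood apart over all genes, with a chi-square per gene of 12.94 and 10.13 against the other libraries of its group, which had 5.07 between them. Without it both passed, PSMB8 as lower (-0.22, edgeR adjusted p 0.000644) and TAP2 as higher (0.17, edgeR adjusted p 0.0099). The count ratio of PSMB8 to PSMB5 was 0.674 to 0.726 in Epinephrine and 0.889 to 0.912 in Control libraries. PSMB5 itself stood at 130.4, 163 and 137 CPM in Epinephrine and at 118, 125 and 126 CPM in Control. The lower ratio thus holds a higher PSMB5 level as well, and is not a measure of PSMB8 alone.

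Of the regulators 1 of 9 was higher and 3 were lower in epinephrine cells. IRF1 was higher, at 77.4, 81 and 119 CPM (log2 fold change 1.14, SE 0.15), whereas NLRC5 (-0.37, SE 0.053) and STAT2 (-0.32, SE 0.055) were lower. Of the loading and trimming genes 4 were lower, among them TAPBP (-0.37, SE 0.064), and 2 were higher, CALR (0.19) and CANX (0.21). Summed endothelial markers were also lower in 3 direct groups than in Control (1117 to 1163 CPM), at 789 to 813 CPM in IL1b, 809 to 839.8 CPM in C5a and 878 to 935 CPM in Epinephrine cells, and stood at 1079 to 1129 CPM in TNF cells. Their part in the lower heavy chain levels was not tested.

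Vesicles from cytokine-treated cells went with small rises. Summed endothelial markers were higher too, at 791 to 819.8 CPM in EV-TNF and 786 to 842 CPM in EV-IL1b against 682 to 729 CPM in EV-Control. They stood at 778 to 807 CPM in EV-Epinephrine and 690.1 to 713 CPM in EV-C5a. Their part in the rises was not tested. The EV-Control libraries, to which each stimulated vesicle group was compared, were uneven over all genes. The chi-square per gene between them was 4.87 to 10.07, against 2.04 to 4.73 within the other vesicle groups. Against EV-Control, 6 of the 9 genes were higher in EV-TNF cells, HLA-C, HLA-E, HLA-F, TAP1, PSMB8 and PSMB9, beside 5.9% of all genes (13.3% in either direction). The median log2 fold change was 0.17 over the 9 genes and -0.001 over all genes. TAP1 stood at 144, 153 and 134 CPM in EV-Control and at 186, 188 and 195 CPM in EV-TNF cells, a 1.32-fold difference (log2 fold change 0.40, SE 0.047, edgeR adjusted p 3.96e-08). HLA-F stood at 34.1, 34.3 and 28.2 CPM in EV-Control and at 41.2, 41.2 and 38.2 CPM in EV-TNF cells (0.32, SE 0.072, edgeR adjusted p 0.000996). PSMB9 stood at 60.3, 64.5 and 62.1 CPM in EV-Control and at 72.6, 73.6 and 75.9 CPM in EV-TNF cells (0.25, SE 0.052, edgeR adjusted p 0.000412). None of these 3 genes' groups overlapped, and 13.2% of all genes tested had every EV-TNF library above every EV-Control library. PSMB8 (0.20), HLA-E (0.17) and HLA-C (0.12) were higher as well. HLA-C lost its call without replicate 3 of EV-TNF (0.08, edgeR adjusted p 0.111), without replicate 3 of EV-Control (0.10, edgeR adjusted p 0.0512) and in a fit of all 30 libraries (edgeR adjusted p 0.142). HLA-B (0.10, SE 0.038), TAP2 (0.10, SE 0.050) and B2M (0.06, SE 0.027) did not pass the test.

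In EV-IL1b cells 6 of the 9 genes were higher, HLA-C, HLA-E, HLA-F, TAP1, TAP2 and PSMB8, beside 6.49% of all genes (14.6% in either direction). TAP1 stood at 201, 178 and 182 CPM, above every EV-Control library (14.1% of all genes tested), with a log2 fold change of 0.38 (SE 0.047, edgeR adjusted p 1.28e-07). TAP2 stood at 77.9, 73.3 and 80.6 CPM in EV-Control and at 90.5, 90.3 and 86.3 CPM in EV-IL1b cells (0.20, SE 0.050, edgeR adjusted p 0.0024). HLA-F (0.26), PSMB8 (0.15), HLA-E (0.10) and HLA-C (0.09) were the others. Without replicate 3 of EV-Control, or in a fit of all 30 libraries, the count fell to 2, TAP1 and TAP2. HLA-C lost its call in 8 of the other settings tried at this threshold. EV-TNF and EV-IL1b share their control libraries. Against each other, no member passed the test, where 0.00628% of all genes did, and the log2 fold changes of EV-IL1b against EV-TNF ran from -0.12 (PSMB9) to 0.11 (TAP2). In that comparison 3 members had an unadjusted p under 0.05 by edgeR's quasi-likelihood test, PSMB9, HLA-E (-0.07) and TAP2, and DESeq2 called none after adjustment.

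EV-C5a cells showed no member past the test, beside 0.0503% of all genes (edgeR adjusted p of at least 0.83). The log2 fold changes ran from -0.05 for HLA-B (SE 0.038) to 0.04 for HLA-F (SE 0.073). No member had an unadjusted p under 0.05, and DESeq2 called none. In EV-Epinephrine cells TAP1 alone passed it, at 167, 156 and 162 CPM (0.18, SE 0.047, edgeR adjusted p 0.00571), beside 9.12% of all genes higher and 19.7% in either direction. Without replicate 3 of EV-Control TAP1 did not pass (0.13, edgeR adjusted p 0.0519), and the 1 member called was B2M, as lower (-0.096, edgeR adjusted p 0.0101). PSMB8 was at the threshold (0.13, SE 0.047, edgeR adjusted p 0.0504) and passed it without replicate 2 of EV-Epinephrine, which made the count 2. With total counts the count was also 2, and 60.2% of called genes were higher, against 46.4% with TMM factors.

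Among regulators, 5 of 9 were higher in EV-TNF cells, among them STAT2, IRF9, NLRC5 and IRF2, with log2 fold changes of 0.57 for STAT2 (SE 0.041), 0.49 for IRF9 (SE 0.12), 0.25 for NLRC5 (SE 0.047) and 0.20 for IRF2 (SE 0.063). In EV-IL1b cells 4 were higher, among them IRF9 (0.79, SE 0.12), STAT2 (0.44, SE 0.042) and NLRC5 (0.28, SE 0.047). In EV-Epinephrine cells STAT2 was higher (0.42, SE 0.042). IRF1 was lower in all 3, at 66.7 ± 2.48 CPM in EV-TNF, 66.9 ± 3.55 in EV-IL1b and 50.1 ± 1.32 in EV-Epinephrine cells against 192, 108 and 92.8 CPM in EV-Control, whose libraries differed widely. Of loading and trimming genes 3 of 8 were higher in each of these 3 groups, CALR, CANX and PDIA3, which code for general chaperones of the endoplasmic reticulum. CALR had log2 fold changes of 0.27 in EV-TNF, 0.31 in EV-IL1b and 0.35 in EV-Epinephrine cells (SE 0.029 each), and TAPBP did not pass the test in any of them. Of the remaining inducible proteasome and PA28 genes, PSME2 in EV-TNF cells (0.14, SE 0.043) was the 1 that passed it. HLA-DRB1 was higher in EV-TNF cells (1.56, SE 0.50) but at 1.01 ± 0.326 CPM.

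EV-Control cells differed from Control cells in this pathway. Of the 9 genes 8 were lower, beside 9.8% of all 16691 genes tested in the fit of both kinds of library (21.9% in either direction), and TAP2 did not pass the test (0.08, SE 0.051). HLA-B stood at 1285, 1352 and 1205 CPM in EV-Control, below each Control library (17.2% of all genes tested), with a log2 fold change of -0.55 (SE 0.059, edgeR adjusted p 2.29e-07). HLA-F (-0.55, SE 0.099), HLA-C (-0.40, SE 0.051), HLA-E (-0.36, SE 0.038), B2M (-0.32, SE 0.039) and TAP1 (-0.27, SE 0.052) followed. PSMB8 (-0.17, SE 0.059, edgeR adjusted p 0.0313) and PSMB9 (-0.17, SE 0.063, edgeR adjusted p 0.0407) were near the threshold, and each lost its call when 1 library was left out, PSMB8 in 5 and PSMB9 in 4 of 6 such fits. Of the genes called, 55.3% were higher in EV-Control, and 42.6% with scaling by total counts. Of the 9 regulators 1 was lower, NLRC5 (-0.24, SE 0.051), and 1 higher, IRF1 (1.62, SE 0.20). Of the loading and trimming genes 3 of 8 were lower, ERAP2 (-0.19), PDIA3 (-0.18) and ERAP1 (-0.15), and of the 7 class I-like genes tested 4 were lower, among them FCGRT (-0.49), HFE (-0.30) and MR1 (-0.28). Endothelial markers summed to 682 to 729 CPM in EV-Control and 1117 to 1163 CPM in Control, and their part in this was not tested. Vesicles and any other difference in handling between the 2 kinds of library cannot be told apart in this comparison.

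The responses to a stimulus given directly and through vesicles were compared by an interaction, the vesicle log2 fold change minus the direct one. For TNF all 9 genes were lower in this difference, from -0.65 (B2M, SE 0.055) to -1.91 (HLA-F, SE 0.13), beside 23.4% of all genes lower and 44.7% in either direction. For IL1b TAP2 (-0.69, SE 0.071), PSMB8 (-0.37, SE 0.083), TAP1 (-0.27, SE 0.073) and PSMB9 (-0.23, SE 0.088) were lower and HLA-C (0.19, SE 0.071) was higher, beside 35.2% of all genes in either direction. For C5a HLA-B (0.43), HLA-E (0.29), HLA-C (0.26) and B2M (0.25) were higher, beside 5.87% of all genes higher and 11.9% in either direction. For epinephrine all but TAP2 were higher, from 0.16 (HLA-E, SE 0.053) to 0.56 (TAP1, SE 0.074), beside 11.7% higher and 24.2% in either direction. The direct and vesicle responses were set against different controls, Control and EV-Control, and these differed from each other for 8 of the 9 genes. The IL1b count of 5 fell to 3 without replicate 2 of Control or without replicate 1 or 3 of EV-IL1b, and the epinephrine count of 8 fell to 5 without replicate 1 of Epinephrine. With total counts the share of called genes that were higher went from 47.7% to 76.7% for TNF and from 48.1% to 62.4% for IL1b, with medians of all genes of 0.313 and 0.113.

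Ordered by mean CPM, TNF cells stood first for all 9 genes and were apart from the second group in every case. IL1b cells were second for 7 genes, with ranges apart from the third group for TAP1, TAP2, PSMB8, PSMB9 and HLA-F, and overlapping Control for HLA-B and HLA-E. For HLA-C and B2M the second group was Control. From the fourth group down, neighbours in the order overlapped in 52 of 54 cases. The share of all genes with such an order was not computed, so these counts cannot be set against a background. The lowest group was EV-C5a for HLA-B, HLA-C and PSMB8, EV-Epinephrine for HLA-E and B2M, EV-Control for HLA-F, Epinephrine for TAP1 and PSMB9, and Control for TAP2 (73.2 ± 2.4 CPM).

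The members varied together over the 10 group means. The correlation of each gene's log2 CPM with the mean of the other 8 ran from 0.951 (TAP2) to 0.997 (HLA-F), a description over 10 points that is carried mainly by the TNF group. By the same measure against the mean of all 9, the genes most alike among 1863 eligible genes, all with a range of at least 1 on the log2 scale and at least 5 CPM in their highest group, were TLR3 (r 0.9963), IL15RA (0.993), NEDD4L (0.9927), LAP3 (0.9901) and ECE1 (0.9899). At rank 40 of this order r was still 0.9797, so values this high were not particular to the members. TLR3 is a receptor for double-stranded RNA, IL15RA presents interleukin 15, NEDD4L is a ubiquitin ligase, LAP3 is an aminopeptidase and ECE1 converts endothelin.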

How the data were processed

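RNA was sequenced in 30 libraries, with NEBNext Ultra kits per the labels' protocols. Per the submitters' processing notes, FastQC, STAR, DESeq2, R 4.4.1 and hg38 were used; the counting program, annotation and strand setting are not given in the sources used here. The authors deposited raw read counts per gene, with no normalization. Of 63147 lines, 4 lacked a gene ID, 3 IDs were repeated and 2 had no counts on their line, leaving 63138 genes.

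Counts were tested with edgeR 4.0.16 in R 4.3.3 (filterByExpr, TMM factors, robust quasi-likelihood test, two-sided, Benjamini-Hochberg adjustment over all genes of a comparison, threshold 0.05). Direct comparisons used the 15 direct libraries (15908 genes), vesicle comparisons the 15 vesicle libraries (15918 genes), and EV-Control against Control and interactions all 30 (16691 genes). On simulated data the fit recovered 177 of 195 changed genes among 15341 (90.8%), with 3 false calls. The simulation gave every gene the same spread and changed far fewer genes than TNF did. Its changes were also larger than every member's change under C5a, epinephrine or vesicles. These rates therefore do not describe how well small changes are found here. No 2 replicates agreed within sampling noise (chi-square per gene 2.04 to 12.94).

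All 9 members were named in the comparisons of single groups, and pathway lists were given by their counts, with examples, though not every list in every comparison. The members, lists and motifs were chosen with earlier results of these data known. Results by name for 1 gene of the class I-like list and 1 of the regulator list are not reported here. Alternatives were relative log expression factors, total counts, no filter, a mean of at least 50 counts, a log2 fold change over 1, DESeq2 1.42.0, a replicate term, other sets of libraries in the fit and leaving out each library. Gene positions and exon lengths are from GENCODE 29 on GRCh38.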

Additional observations from a re-analysis of the deposited data

Results flagged for a closer look

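The vesicle response and the direct response to the same stimulus differed for the following genes, each by the interaction test of edgeR's quasi-likelihood fit with Benjamini-Hochberg adjustment over 16691 genes. Values are the vesicle log2 fold change minus the direct one, and n = 3 libraries a group. For TNF the difference was -1.91 for HLA-F, -1.89 for TAP1, -1.55 for TAP2, -1.26 for PSMB9, -1.06 for PSMB8, -1 for HLA-B, -0.74 for HLA-E, -0.69 for HLA-C and -0.65 for B2M, with adjusted p between 7.38e-28 (TAP2) and 1.72e-09 (HLA-C) by edgeR. For IL1b it was -0.69 for TAP2, -0.37 for PSMB8, -0.27 for TAP1 and -0.23 for PSMB9, and 0.19 for HLA-C (edgeR adjusted p 0.0392). When the 12 libraries were left out in turn, the HLA-C value lost its call 8 times and the PSMB9 value 5 times.

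For C5a the difference was 0.43 for HLA-B, 0.29 for HLA-E, 0.26 for HLA-C and 0.25 for B2M, with edgeR adjusted p of 5.44e-05 (HLA-E) to 0.0144 (HLA-C). For epinephrine it was 0.56 for TAP1, 0.55 for HLA-B, 0.55 for HLA-F, 0.39 for HLA-C, 0.32 for PSMB9, 0.26 for PSMB8, 0.20 for B2M and 0.16 for HLA-E, with edgeR adjusted p of 7.45e-08 (TAP1) to 0.0188 (HLA-E). In the epinephrine difference PSMB8, PSMB9 and HLA-E were no longer called without replicate 1 of Epinephrine.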

How the results depend on the processing

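Of 2160 results for single members in 15 comparisons under other settings, 2002 kept their side of the threshold, 126 were no longer called and 32 became called. The sign differed from that of the reported value in 49, which belong to 20 of 135 results, and in 0 of these was the value called under either setting. When the absolute log2 fold change also had to exceed 1, the count of members called was 6 for TNF, 4 for IL1b against TNF, 5 for the TNF interaction, and 0 for IL1b, C5a, Epinephrine, EV-TNF, EV-IL1b, EV-Epinephrine, EV-Control against Control and the interactions of IL1b, C5a and epinephrine. The share of all genes passing this added rule was not computed, so these counts cannot be set against a background. The EV-IL1b count was 2 in the fit of 30 libraries. The EV-Epinephrine count was 2 with total counts, with a mean of at least 50 counts and with replicate number as a block. Leaving out each library in turn gave counts of 9 to 9 for TNF, IL1b against TNF and the TNF interaction, 5 to 5 for IL1b, 5 to 6 for C5a, 6 to 9 for Epinephrine, 5 to 7 for EV-TNF, 2 to 7 for EV-IL1b, 1 to 2 for EV-Epinephrine, 6 to 7 for EV-Control against Control, and 3 to 5, 3 to 5 and 5 to 8 for the interactions of IL1b, C5a and epinephrine. EV-C5a and EV-IL1b against EV-TNF had 0 called in each setting tried. Replicate numbers did not pair the libraries. Deviations of same-numbered libraries correlated at -0.054 to 0.061, 6 of 30 libraries correlated best with their own number, and the block called PSMB8 in EV-Epinephrine (edgeR adjusted p 0.0495) and changed no other count by over 1.5 times. Summing several lines of a symbol was not run, since no member has more than 1. Depth limits IFNB1, CIITA, HLA-G and the class II genes most. Among the members it bears most on HLA-F, with a counting error of 1.63% to 4.19%.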
